A study of Mus musculus with 3 samples.

Results

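Transcripts of 10 genes of glucose breakdown were followed across 3 sorted populations of cells: Hk1, Hk2, Pfkp, Aldoa, Aldoc, Pgk1, Eno1, Eno2, Pkm and Ldha. The genes were chosen by symbol, and their probes were found through the platform annotation. Of the 10 genes, 9 had a listed probe, by 11 probes in all, among 16593 genes and 25697 probes on the array. No probe was listed for Eno1, so its level is not analysed here.

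The cells came from mouse embryonic stem cells of the Hb9-GFP line, in which green fluorescent protein (GFP) reports on the motor neuron gene Hb9 (Mnx1). As the labels describe it, stem cells were kept on feeder cells in medium with serum, then formed embryoid bodies that were given retinoic acid and purmorphamine, a Hedgehog pathway agonist, to make motor neurons. All 3 groups came from such cultures and differed by the gate of the cell sort: GFP high (motor neurons in the labels), GFP low and GFP negative. Each group was 1 array of amplified RNA, with no replicate, so no difference could be tested and precision is limited by the number of arrays.

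The arrays were alike in brightness, with median intensities of 105.3, 109.9 and 108.1 and 11736, 11727 and 11689 detected probes on the GFP high, GFP low and GFP negative arrays. The motor neuron markers followed the gates: the normalized log2 signal of Mnx1 was 7.99 for GFP high, 5.30 for GFP low and 5.16 for GFP negative cells. All 5 motor neuron markers looked up (Mnx1, Isl1, Chat, Slc18a3 and Lhx3) were higher by at least 2-fold in GFP high cells than in GFP negative ones. Over all genes compared that share was 6.99%. Of 10 neuron markers, 9 were detected on every array, and Tubb3 on none. RNA was pooled over the cells of a gate, so fewer cells of a type and less RNA per cell cannot be told apart.

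Glycolysis turns glucose into pyruvate in the cytosol and yields ATP without oxygen. Hexokinase (Hk1, Hk2) traps glucose as glucose 6-phosphate, phosphofructokinase (Pfkp) commits it to the pathway and aldolase (Aldoa, Aldoc) splits the sugar. Phosphoglycerate kinase (Pgk1) makes ATP, enolase (Eno1, Eno2) and pyruvate kinase (Pkm) lead to pyruvate, and lactate dehydrogenase A (Ldha) turns pyruvate into lactate. Several steps have isozymes with their own tissue pattern: Eno2 encodes gamma enolase, known as neuron-specific enolase, while Eno1 encodes the widespread alpha form. Hk1 is the main hexokinase of brain, and Hk2 is known from muscle and from many dividing cells.

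By normalized signal, 2 of the 9 measured genes differed at least 2-fold between gates. Eno2 was 3.44-fold higher in GFP high cells than in GFP negative ones, and Hk2 was 2.61-fold lower. The signals of the other 7 members with a probe spanned 0.19 to 0.57 on the log2 scale over the 3 arrays. For 2 of those 7, Pfkp and Pgk1, some arrays gave no detected signal, so their folds there are lower bounds. Of those 9 members, 1 had its highest signal in GFP high cells (Eno2), 3 in GFP low cells (Hk1, Pfkp and Pgk1) and 5 in GFP negative cells (Hk2, Aldoa, Aldoc, Pkm and Ldha). Among the 8 members detected in GFP high or GFP negative cells, 1 was at least 2-fold higher, against 6.99% of all 8613 genes compared, and 1 was at least 2-fold lower, against 9.88%. In either direction that is 2 of 8 against 16.9% of all genes, and with so few members the shares cannot be set apart. The median log2 difference of these 8 was -0.23, beside 0.02 over all genes compared.

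**Figure D1:**
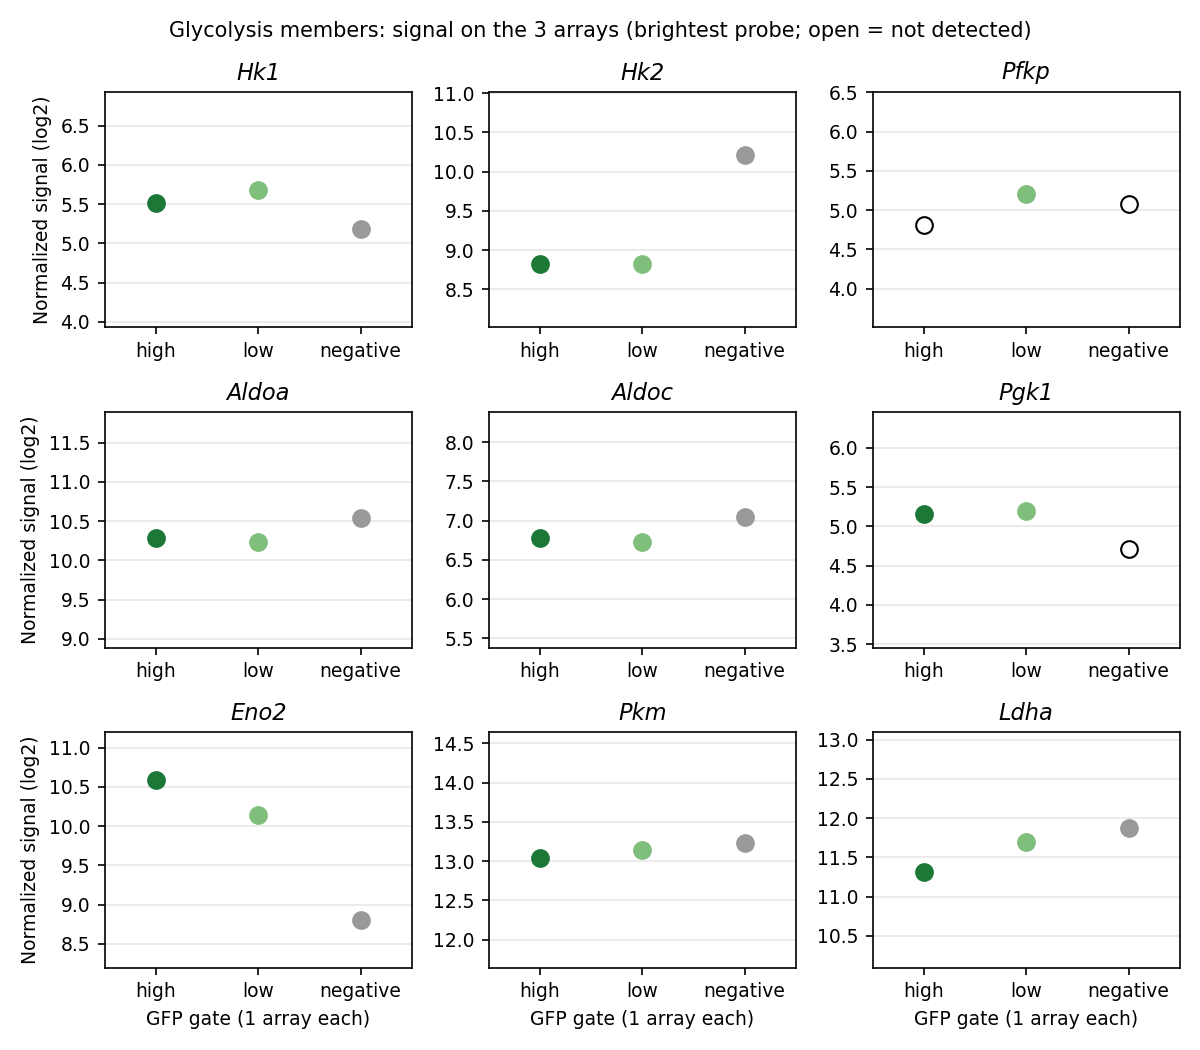
Normalized log2 signal of the brightest probe of each of the 9 members (vertical axis, its own range per gene, the same span for each) on the GFP high, GFP low and GFP negative arrays (horizontal axis), 1 point per array. Open points were not detected; Eno2 is highest in GFP high cells at 10.59, and Hk2 is highest in GFP negative cells at 10.21.

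In the plot of signals by gate, Eno2 steps down from left to right, Hk2 stands apart on the GFP negative array, and the remaining genes are near level. As a gauge of technical spread, genes with at least 2 detected probes gave an SD of the log2 difference of 1 probe. It was 0.33 between the GFP high and GFP negative arrays, 0.26 between GFP high and GFP low, and 0.29 between GFP low and GFP negative. This gauge covers the choice of probe, over 2370 genes. It does not cover what a whole array shares, or differences between cultures and sorts.

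Eno2 had intensities of 1532 in the GFP high, 1258 in the GFP low and 533 in the GFP negative gate before normalization, and log2 signals of 10.59, 10.14 and 8.80 after it. GFP high and GFP low cells were both well above GFP negative cells and lay close to each other. GFP low cells were 2.52-fold above GFP negative cells, and GFP high cells were 1.36-fold above GFP low cells. Each of the 3 differences exceeded the between-probe SD. In GFP high against GFP negative cells, 112 of 8613 genes (1.3%) had a higher difference than Eno2. In GFP low against GFP negative cells, 122 of 8516 genes (1.43%) had a higher one, and in GFP high against GFP low cells 975 of 8427 (11.6%).

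Neuron markers moved with Eno2. Of the 9 detected, 8 were higher by at least 2-fold in GFP high cells than in GFP negative ones, with a median log2 difference of 1.84: Map2, Nefm, Stmn2, Stmn4, Gap43, Elavl4, Syt1 and Dcx. In GFP low against GFP negative cells 6 of 9 were at least 2-fold higher, with a median of 1.20, and in GFP high against GFP low cells 2 of 9, with a median of 0.46. Over all genes compared, 6.99%, 3.37% and 1.1% were at least 2-fold higher, in the same order. The log2 differences of Eno2 in the same comparisons were 1.78, 1.34 and 0.45. The summed normalized signal of the neuron markers, undetected Tubb3 included, was 21171 in the GFP high, 13976 in the GFP low and 5336 in the GFP negative gate. The part of neuron content in the Eno2 difference was not tested. The motor neuron markers had another profile, with a median of 3.41 in GFP high against GFP low cells and 1.04 in GFP low against GFP negative cells. Among these, Mnx1 had a GFP low signal 1.10-fold that of GFP negative cells.

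Over the 7464 genes detected on all 3 arrays, the 5 whose steps from gate to gate lay nearest to those of Eno2 were Plekha6, Nsg2, Carhsp1, Esrrb and Pcdhb10. Likeness was the Euclidean distance over 2 log2 differences, which ranged from 0.02 for Plekha6 to 0.04 for Pcdhb10. Over the 7 alternative settings, from 2 to 5 of these 5 were again among the nearest 5, Nsg2 and Carhsp1 each time. All 5 returned with a looser detection threshold, undetected genes kept in or the mean of detected probes. Those settings leave the differences of Eno2 and of these single-probe genes as they were. The share was 2 without background correction, 2 with an offset of 50, 4 with median scaling and 3 in the authors' value table. With 3 arrays such a match is a description of these arrays.

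Hk2 had intensities of 497 in the GFP high, 558 in the GFP low and 1281 in the GFP negative gate, and log2 signals of 8.83, 8.82 and 10.21. The GFP negative array stood apart, while GFP high and GFP low cells gave nearly the same signal, at a log2 difference of 0.01. Hk2 was 2.62-fold lower in GFP low cells than in GFP negative ones, where 64 of 8516 genes (0.752%) had a lower difference. In GFP high against GFP negative cells 476 of 8613 genes (5.53%) had a lower difference than Hk2. The sign of the GFP high against GFP low difference turned with median scaling, at -0.10.

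Hk1 did not follow Hk2. Its log2 signal was 5.52 in the GFP high, 5.68 in the GFP low and 5.18 in the GFP negative gate, lowest in the gate where Hk2 was highest. It was 1.27-fold higher in GFP high and 1.41-fold higher in GFP low cells than in GFP negative ones. The Hk1 probe was detected on every array but was dim, with intensities of 121, 135 and 115 against a background of 93.4, 96.1 and 95.4. Its folds are therefore drawn toward 1 by the offset added to every signal. They are also uncertain: the GFP high and GFP negative intensities lay within a background SD of each other (5.95 and 5.96). Over the alternative settings the log2 difference of these 2 gates ran from 0.12 to 0.58. The difference between the 2 hexokinases in their GFP high against GFP negative change was 1.73 on the log2 scale.

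The promoters of Hk2 and Eno2 are shown because these were the 2 members past 2-fold. Each is the 250 bases before the RefSeq start, on the minus strand of mouse build GRCm38.p6, 5′ to 3′. Hk2 lies at chr6:82774455-82774704 and Eno2 at chr6:124769674-124769923. Capitals mark ACGTG on either strand, the core of the element bound by hypoxia-inducible factors, which act on many genes of glycolysis.
Hk2: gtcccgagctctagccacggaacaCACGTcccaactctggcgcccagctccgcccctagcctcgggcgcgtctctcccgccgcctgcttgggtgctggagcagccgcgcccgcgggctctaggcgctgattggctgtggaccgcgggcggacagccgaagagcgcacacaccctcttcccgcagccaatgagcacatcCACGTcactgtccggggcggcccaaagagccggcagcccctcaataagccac
Eno2: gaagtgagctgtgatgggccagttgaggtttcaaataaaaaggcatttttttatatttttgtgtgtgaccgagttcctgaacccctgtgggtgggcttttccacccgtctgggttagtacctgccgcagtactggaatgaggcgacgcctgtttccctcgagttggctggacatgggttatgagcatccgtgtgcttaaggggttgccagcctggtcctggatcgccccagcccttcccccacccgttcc

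The Hk2 window held 2 matches, starting 226 and 52 bases upstream, and the Eno2 window held 0. Of 18 listed windows of the 10 genes, 6 held ACGTG, in Aldoa, Hk2, Ldha, Pgk1 and Pkm, against 16.6% of all 32851 windows. The 2 Aldoa windows among the 6 overlap and hold the same site. The 6-base E-box CACGTG, which contains ACGTG on both strands, was found in 1 of the 18 windows, that of Ldha, against 6.02% of all windows. Ldha had 5 ACGTG matches in that window, of which 4 lay within 2 copies of CACGTG. The windows are 55.6%, 71.2% and 69.2% G and C for the 3 starts of Eno1, 69.6% for Hk2 and 54.4% for Eno2. A match is a description of the sequence, not a binding site.

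**Figure D2:**
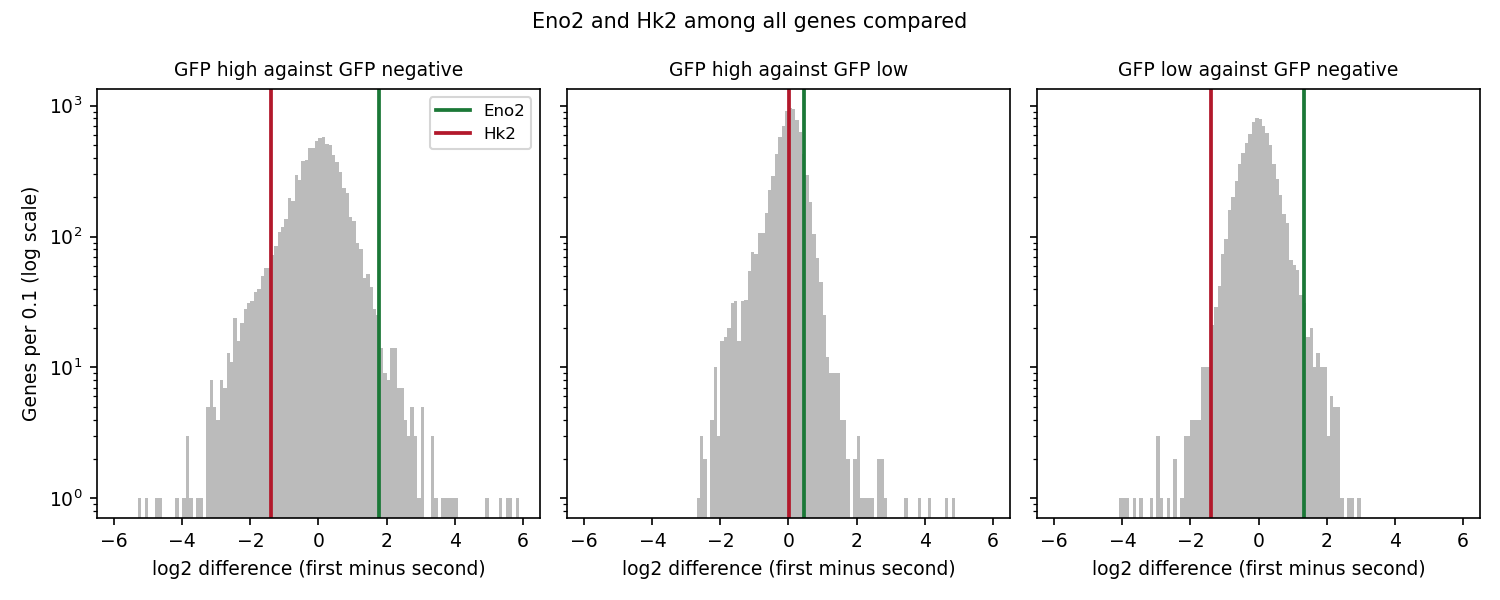
Histograms of the log2 difference of every gene detected on at least 1 of the 2 arrays (bins of 0.1, horizontal axis; number of genes on a log axis, vertical) for the 3 comparisons, with Eno2 (green line) and Hk2 (red line). Against GFP negative cells both lines lie in the tails, and between GFP high and GFP low cells they lie at 0.45 and 0.01.

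The histograms place both genes among all genes compared. The 3 comparisons share arrays, and the difference of GFP high against negative is the sum of the other two, so the panels are not independent.

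Ldha, the lactate-forming enzyme, was the next to Hk2 among members lower in GFP high cells. Its log2 signal was 11.31 in the GFP high, 11.69 in the GFP low and 11.88 in the GFP negative gate. The signal was lowest in GFP high cells, 1.48-fold below GFP negative cells and 1.31-fold below GFP low cells, both beyond the between-probe SD. The log2 difference of GFP low and GFP negative cells, -0.18, lay within it. Lower differences than that of Ldha were found in 20.3% of genes in GFP high against GFP negative cells.

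Pkm, pyruvate kinase of muscle and most other tissues, was the most even member. Its log2 signal was 13.04 in the GFP high, 13.14 in the GFP low and 13.23 in the GFP negative gate. All its differences lay within the between-probe SD, the widest being 1.14-fold. The single probe is annotated to the gene, and the M1 and M2 splice forms of pyruvate kinase were not told apart here.

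The 2 aldolases gave nearly the same profile. Aldoa, the aldolase of muscle and most cells, had log2 signals of 10.28 in the GFP high, 10.23 in the GFP low and 10.55 in the GFP negative gate. Aldoc, the brain aldolase known from astrocytes and Purkinje cells, had 6.78, 6.72 and 7.04. Both were highest in GFP negative cells and 1.20-fold lower in GFP high cells. The GFP low against GFP negative differences, -0.32 for both, exceeded the between-probe SD of 0.29 narrowly. Those of GFP high against GFP low cells were 0.05 each and turned sign with median scaling, at -0.0031 for Aldoa and -0.06 for Aldoc.

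Aldoc stayed near level where glial markers differed. Of 7 radial glia and astrocyte markers, 2 were detected in the GFP high, 2 in the GFP low and 3 in the GFP negative gate. Slc1a3, a glutamate transporter of radial glia, was 9.45-fold lower in GFP high cells than in GFP negative ones, and Sox9 was 3.57-fold lower. Fabp7 was also lower, but undetected in GFP high cells, and its fold as a lower bound did not reach 2-fold. The astrocyte markers Gfap, Aqp4 and S100b, and Glul, were not detected on any array. The summed normalized signal of the list, undetected genes included, was 438 in the GFP high, 1176 in the GFP low and 2630 in the GFP negative gate.

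Pfkp and Pgk1 were measured near the limit of detection. Pfkp, the platelet-type phosphofructokinase also expressed in brain, had 3 probes, and its brightest gave log2 signals of 4.81 in the GFP high, 5.203 in the GFP low and 5.07 in the GFP negative gate. It was detected in GFP low cells alone, so no fold is given for GFP high against GFP negative cells. GFP high cells lay at least 1.05-fold below GFP low cells. Neither of the other 2 Pfkp probes was detected on any array.

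Pgk1 had log2 signals of 5.16 in the GFP high, 5.19 in the GFP low and 4.71 in the GFP negative gate, where it was not detected. It was at least 1.01-fold higher in GFP high and at least 1.04-fold higher in GFP low cells than in GFP negative ones. The lowest signal of any detected probe was 5.13, 5.13 and 5.14 on the GFP high, GFP low and GFP negative arrays.

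**Figure D3:**
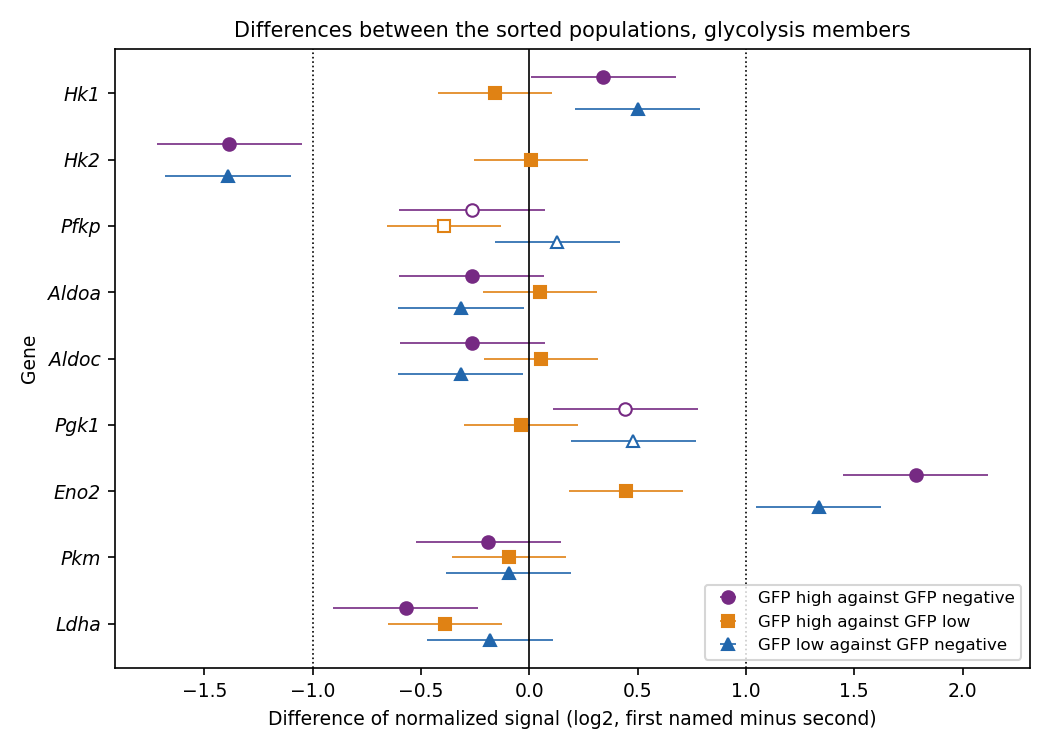
Log2 difference of normalized signal (horizontal axis, first named group minus second) for the 9 members (rows) in the 3 comparisons. Bars are 1 between-probe SD (0.33, 0.26 and 0.29), dotted lines mark 2-fold, and open symbols had an undetected signal on the dimmer array or on both; Eno2 and Hk2 alone pass 2-fold.

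In the plot of differences, the GFP high against GFP low values gather around 0. Of the 9 members detected there, 0 were at least 2-fold higher or lower, against 5.27% of the 8427 genes compared (1.1% higher and 4.17% lower), with a median of -0.04 beside 0.03 over all genes. The differences of Eno2 and Ldha exceeded the between-probe SD of 0.26. That of Pfkp, -0.39, is set against an undetected signal, and its bound of -0.08 lay within the SD. In GFP low against GFP negative cells, 2 of 9 members differed at least 2-fold, against 6.05% of 8516 genes. Eno2 was the 1 higher member, against 3.37% of genes, and Hk2 the 1 lower member, against 2.68%. The median was -0.10 there, beside -0.02 over all genes.

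The missing enolase has a near relative on the array. A probe annotated to Eno1b, a gene whose listed synonyms include Eno1, had log2 signals of 5.14 in the GFP high, 5.23 in the GFP low and 6.16 in the GFP negative gate. Eno1b is no member and was looked up after Eno1 was found to have no probe. It was 2.03-fold lower in GFP high cells than in GFP negative ones, opposite to Eno2, and dim on the first 2 arrays. The difference fell under 2-fold with an offset of 50, at -0.61 on the log2 scale, and without background correction, at -0.40. Whether the probe also binds Eno1 RNA was not tested.

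Of 18 other genes of glycolysis, 14 had a probe and 9 were detected in GFP high or GFP negative cells. Of these 9, 0 were at least 2-fold higher or lower, against 16.9% of all genes compared, a share that 9 genes are too few to be set apart from. Their median log2 difference was -0.16, and its sign turned with the mean of detected probes, at 0.06, and with undetected genes kept in, at 0.05. Medians were 0.11 in GFP high against GFP low cells over 9 genes and -0.12 in GFP low against GFP negative cells over 8, again with 0 past 2-fold. The first of these turned sign with the mean of detected probes, at -0.05. No probe was listed for Gpi1 or Ldhb.

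Gapdh, which reduces NAD while it phosphorylates the sugar, had log2 signals of 13.62 in the GFP high, 13.82 in the GFP low and 13.86 in the GFP negative gate, and its second probe was also lowest in GFP high cells. Tpi1, triose phosphate isomerase, had 12.30, 12.16 and 12.10, and Pgam1, phosphoglycerate mutase, had 8.35, 8.40 and 8.58. By their brightest probes, their GFP high against GFP negative differences of -0.24, 0.20 and -0.23 lay within the between-probe SD of 0.33. That of the second Gapdh probe, -0.48, exceeded it.

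Of the 9 genes, 4 differed between GFP high and GFP negative cells by more than the between-probe SD of 0.33: Adpgk, Ldhc, Pfkm and Hk3. They were picked out after their values were seen. Adpgk, a glucokinase that uses ADP, had log2 signals of 7.25 in the GFP high, 7.71 in the GFP low and 8.08 in the GFP negative gate, with GFP high cells 1.77-fold below GFP negative cells. Its other 2 probes were not detected on any array. Hk3, a further hexokinase, had 8.93, 9.22 and 9.49 and was 1.47-fold lower. Ldhc, the lactate dehydrogenase of testis, was detected in GFP high cells alone and was at least 1.11-fold higher there than in GFP negative cells, a bound within the SD.

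Pfkm is the muscle-type phosphofructokinase. Its log2 signal was 10.73 in the GFP high, 10.16 in the GFP low and 10.005 in the GFP negative gate. GFP high cells stood above both other gates, by 1.66-fold over GFP negative cells. The log2 differences of its 3 probes were 0.73, 0.81 and 0.88. The liver-type Pfkl had a difference of -0.16 by its brightest probe. A second Pfkl probe, not detected in GFP high or GFP negative cells, gave 0.51.

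Among the glucose transporters, Slc2a1 and Slc2a4 were lower past 2-fold in GFP high cells than in GFP negative ones. That is 2 of 4 detected transporter genes, against 9.88% of all genes compared, and 4 genes are too few to set the shares apart. The median was -0.71. Slc2a1, the widespread glucose transporter GLUT1, had log2 signals of 11.69 in the GFP high, 12.23 in the GFP low and 12.94 in the GFP negative gate, a step at each gate. It was 2.38-fold lower in GFP high cells than in GFP negative ones. Slc2a3, the glucose transporter GLUT3 known from neurons, had 9.44, 9.28 and 9.62 and differed by 1.13-fold. Slc2a4, the insulin-responsive transporter GLUT4, had 4.70, 5.74 and 6.32 and was lower by at least 2.29-fold in GFP high cells than in GFP negative ones. With an offset of 50 its difference was -0.93 on the log2 scale, and without background correction -0.61, both under 2-fold. The lactate transporter genes Slc16a1, Slc16a3 and Slc16a7, and Bsg, were not detected on any array.

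**Figure D4:**
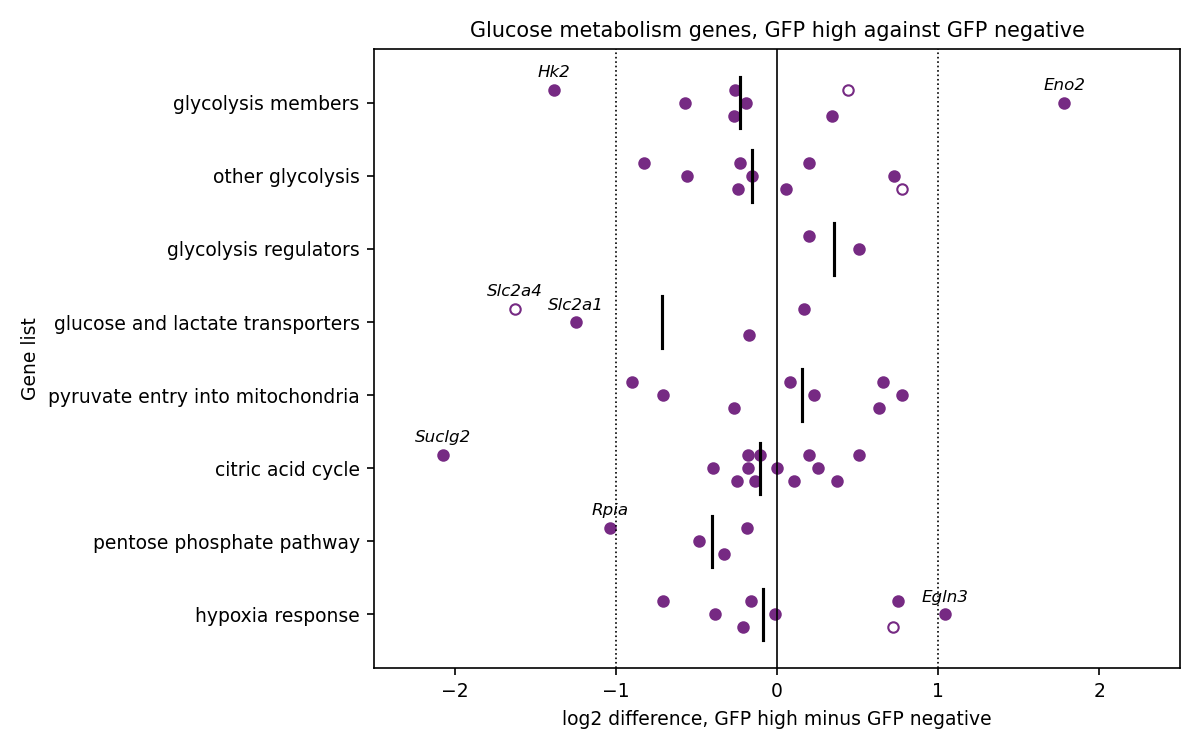
Log2 difference of GFP high minus GFP negative cells (horizontal axis) for each detected gene of 8 lists of glucose metabolism (rows), with list medians as black bars and 2-fold as dotted lines. Open points were not detected on the dimmer array; named genes passed 2-fold, namely Hk2, Eno2, Slc2a1, Slc2a4, Suclg2, Rpia and Egln3.

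In the plot of the 8 lists, 7 genes lie past 2-fold and the list medians run from -0.71 for the transporters to 0.35 for the regulators of glycolysis. These lists are too small for their shares past 2-fold to be set apart from the 16.9% of all genes compared. The 2 detected regulators, Pfkfb2 and Pfkfb4, make and break fructose 2,6-bisphosphate, an activator of phosphofructokinase. Their log2 differences of GFP high against GFP negative cells were 0.51 and 0.20. Of 8 detected genes of pyruvate entry into mitochondria, 0 were at least 2-fold higher or lower in GFP high cells than in GFP negative ones, with a median of 0.16 and a range of -0.90 to 0.78. Of 13 detected citric acid cycle genes, 1 passed 2-fold, in the lower direction, against 9.88% of all genes compared, and the median was -0.10. That gene was Suclg2, which encodes a subunit of the GTP-forming succinyl-CoA ligase. Its log2 signal was 6.71 in the GFP high, 7.72 in the GFP low and 8.78 in the GFP negative gate, and it was 4.21-fold lower in GFP high cells than in GFP negative ones. A second, undetected probe of Suclg2 gave a log2 difference of -0.75.

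All 4 detected pentose phosphate genes had a lower signal in GFP high cells than in GFP negative ones by their brightest probe. The median was -0.41. Against 9.88% of all genes compared, 1 of these 4 was at least 2-fold lower. That was Rpia, ribose 5-phosphate isomerase, with 7.197 in the GFP high, 7.59 in the GFP low and 8.23 in the GFP negative gate and a 2.05-fold difference, which was under 2-fold with an offset of 50, at -0.89 on the log2 scale, and without background correction, at -0.75. The probes of Tkt, transketolase, disagreed in sign, at -0.33 for the brightest and 0.89 and 0.79 for the dimmer probes.

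Of 8 detected hypoxia response genes, 1 was higher by at least 2-fold in GFP high cells than in GFP negative ones and 0 lower, with a median of -0.09, which turned to 0.10 with the mean of detected probes. The higher gene was Egln3, an oxygen-dependent prolyl hydroxylase, with 7.996 in the GFP high, 7.32 in the GFP low and 6.95 in the GFP negative gate and a 2.06-fold difference. That too was under 2-fold with an offset of 50, at 0.87 on the log2 scale, and without background correction, at 0.72. Its second probe was not detected. Of the 8 genes, 3 had a higher and 5 a lower signal in GFP high cells than in GFP negative ones by their brightest probes. Among the 5, the second probes of Egln1 and Ndrg1 had the other sign, at 0.46 and 0.36. That of Vegfa kept its sign, at -0.67. Slc2a1, also a textbook target of hypoxia-inducible factors, was lower. The part of hypoxia in these differences was not tested.

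By summed signal, markers of dividing cells, endoderm and erythroid cells were highest in GFP negative cells, where Hk2 and Slc2a1 were highest too. So was Sparc, the only feeder and mesenchyme marker detected. By sum, undetected genes included, pluripotent markers went the other way, at 286 in the GFP high and 144 in the GFP negative gate. Muscle markers were near level in these 2 gates, at 132 and 139. The median log2 difference of the 2 gates was 0.93 over 2 detected pluripotent genes, with Esrrb at 1.76 and the other at 0.10. That of muscle markers was 0.19 over 1 detected gene, within the between-probe SD of 0.33. With a looser detection threshold the medians were 0.10 over 3 pluripotent and -0.25 over 2 muscle genes. All 4 measured markers of dividing cells (Top2a, Cdk1, Birc5 and Mcm3) were lower by at least 2-fold in GFP high cells than in GFP negative ones, with a median of -2.38, and at least 2-fold lower than in GFP low cells, with a median of -1.70. Over all genes compared, 9.88% and 4.17% were at least 2-fold lower, in the same order. The summed signal of the dividing cell markers was 1522 in the GFP high, 4897 in the GFP low and 8230 in the GFP negative gate. In GFP high against GFP low cells the log2 differences of Hk2 and Slc2a1 were 0.01 and -0.54. The part of dividing cells in the Hk2 and Slc2a1 differences was not tested.

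Of 6 endoderm markers, 0 were detected in the GFP high, 1 in the GFP low and 3 (Gata6, Sox17 and Dab2) in the GFP negative gate, with a summed signal of 130, 176 and 796. Of 4 erythroid markers with a probe, 0, 1 and 3 (Hbb-y, Hba-x and Hbb-bh1) were detected, with sums of 85.6, 98.8 and 1077. Of 6 feeder and mesenchyme markers 1 was detected on each array, Sparc, and the sums were 193, 351 and 2046. These sums include undetected genes, so the GFP high sums of endoderm and erythroid markers hold no detected signal. The part of these cells in the Hk2 and Slc2a1 differences was not tested.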

How the data were processed

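RNA of 3 sorted populations was measured on an Illumina bead array, 1 array per group. The authors deposited a non-normalized intensity and a detection p-value per probe and array, per the file headers; GenomeStudio is named per the submitters' processing notes, with no version given. A second table, deposited by the authors as linear intensities, has no value under 10; the sources used here do not give its background step and scaling.

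Intensities were corrected with normexp, whose background was estimated from detection p-values. After an offset of 16 came quantile normalization and log2 (limma 3.58.1, R 4.3.3), and further steps in Python 3.11.15. The steps were tested on simulated data with changes put on probes well above background. Dim probes such as those of Hk1, Pfkp and Pgk1 were not covered. Gene names came from the platform annotation, with 23978 probes of 1 symbol, 0 of several and 1719 of none listed, and 23962 matched a current gene table by gene ID. The probe brightest on average stood for its gene. Detection means a detection p-value under 0.01. A gene was compared if detected in either group, and counted at 2-fold. Against an undetected signal the fold is a lower bound. Quantile normalization forces equal distributions on the arrays, and the offset understates the folds of dim genes.

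Named genes are all members; Gpi1, Tpi1, Gapdh, Pgam1, Slc2a1, Slc2a3 and Ldhb where measured; other listed genes past 2-fold; and the 5 genes nearest to Eno2. Adpgk, Hk3, Ldhc, Pfkm, Pfkl, Tkt, Pfkfb2, Pfkfb4, Eno1b, Egln1, Ndrg1, Vegfa and undetected genes were named besides, after their values were seen. The members, gene lists and settings were chosen with earlier results of these data known. Promoters are from RefSeq, GRCm38.p6, found for 10 of 10 members.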

Additional observations from a re-analysis of the deposited data

How the results depend on the processing

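Differences, counts and medians of the members and of the other glycolysis genes were computed again without background correction, with an offset of 50, with median scaling, with a detection p-value under 0.05, with undetected genes kept in, with the mean of detected probes and from the authors' value table. Those of the other named glucose genes, the other lists and the genes nearest to Eno2 were added after the data were seen. Over these 7 alternatives the Eno2 difference between GFP high and GFP negative cells ran from 1.62 to 1.79 on the log2 scale, and that of Hk2 from -1.48 to -1.25. In the authors' value table the count of other glycolysis genes past 2-fold was 1 in GFP high against GFP negative cells, against 0 before. This was Ldhc, at 23.9 in GFP high cells and at the floor of 10 in GFP negative cells, and Pgk1 passed 2-fold against that floor too. Of 26 member differences, 3 moved beyond the between-probe SD without background correction, 4 in the authors' value table, and 0 with an offset of 50 or median scaling; a looser detection threshold, no filter and the mean of detected probes leave a member's difference as it was by construction, since no member has a second detected probe; those that moved belonged to Hk1, Pfkp and Pgk1, which are close to background. Of 9 differences past 2-fold among the other named glucose genes, 7 were under 2-fold without background correction and 7 with an offset of 50, those of Egln3, Eno1b, Rpia, Slc2a4 (in 2 comparisons) and Suclg2 (in GFP high against GFP low and GFP low against GFP negative cells). Over all genes, the share past 2-fold in GFP high against GFP negative cells was 16.9%, and 8.07% without background correction, 10.7% with an offset of 50 and 24.3% in the authors' value table. No paired analysis was possible because each group has 1 array. Signal over background limits what can be said of Hk1, Pfkp and Pgk1, and the single array per gate limits every difference.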
